A study of Mus with 15 samples.

Results

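The comparison described here is that of wound skin of healthy mice (healthy wound) with normal skin of uninjured healthy mice (normal skin). Its members were the 5 libraries of each group in the deposited count table, 10 of the 15 libraries of the series, and they were fitted without the third group, wounds of diabetic mice. The labels give the treatment of the wound libraries as wound surgery and that of the normal skin libraries as sham. Poly-A RNA was taken from frozen tissue, per the labels. Neither the strain, age and sex of the mice nor the wound type and time after wounding could be read from the labels. Whether the libraries of a group are separate mice is not labelled, and the p-values therefore measure only the spread between these libraries, which may be technical. The comparison asks which RNAs differ between a wound and uninjured skin.

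Repair of a skin wound is known to run through overlapping phases. Clotting and the entry of neutrophils and macrophages come first, then keratinocytes migrate from the wound edge while fibroblasts and sprouting vessels build granulation tissue, and collagen is remodelled last. Chemokines bring leukocytes in, keratinocytes at the edge switch their keratins and adhesion proteins, and proteases with their inhibitors open paths through the matrix.

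The libraries held 17.4 to 17.7 M counts in healthy wounds and 15.7 to 17.8 M counts in normal skin. Skin RNA was present in all 10 libraries: the basal keratin gene Krt14 measured 3858 to 9612 CPM in healthy wounds and 1613 to 7742 CPM in normal skin, and the collagen gene Col1a1 7215 to 34290 CPM in healthy wounds and 9856 to 25190 CPM in normal skin. Values are in CPM, counts per M counts of a library size scaled by the TMM method. Component 1 of a principal component analysis, with 30.9% of the variance, separated the groups, and the second component (24.1%) spread libraries within each group. On component 1 the healthy wounds lay at -57.3 to -23.1 and normal skin at -0.51 to 122. Normal skin replicate 2 was at that far end, and the next normal library was at 35.3. Normal skin replicate 2 stood apart from the rest. Its Pearson correlation across genes with the other libraries was 0.845 to 0.903, whereas the other normal skin libraries correlated with each other at 0.897 to 0.963 and the healthy wounds at 0.921 to 0.975. Pairs of a healthy wound and a normal skin library correlated at 0.845 to 0.9365, with a median of 0.910. That median was not below the 0.9035 of pairs within normal skin, all 5 libraries included. Reads of mitochondrially encoded genes made up 2.43 ± 0.223% of counts in healthy wounds and 3.18 ± 0.313% in normal skin (SD, n = 5 each), with no overlap, and the exact permutation test over libraries gave its smallest possible two-sided p of 0.00794 (0.0397 after adjustment over 5 library measures).

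Tissue content varied between libraries. The 19 tested skeletal muscle genes summed to 2077 to 14630 CPM in healthy wounds and 4848 to 48140 CPM in normal skin, with overlap, and the 22 adipocyte genes to 1737 to 4204 CPM in healthy wounds and 5089 to 11350 CPM in normal skin, without overlap. The 20 tested hair keratin and follicle genes ranged from 47.9 to 12320 CPM in healthy wounds and from 61.2 to 6599 CPM in normal skin. Healthy wound replicate 2 and normal skin replicate 5 were the hair-rich libraries of their groups. In bulk tissue, fewer cells of a type and less RNA per cell cannot be told apart, and the part that differing tissue content played in the results that follow was not tested.

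**Figure D1:**
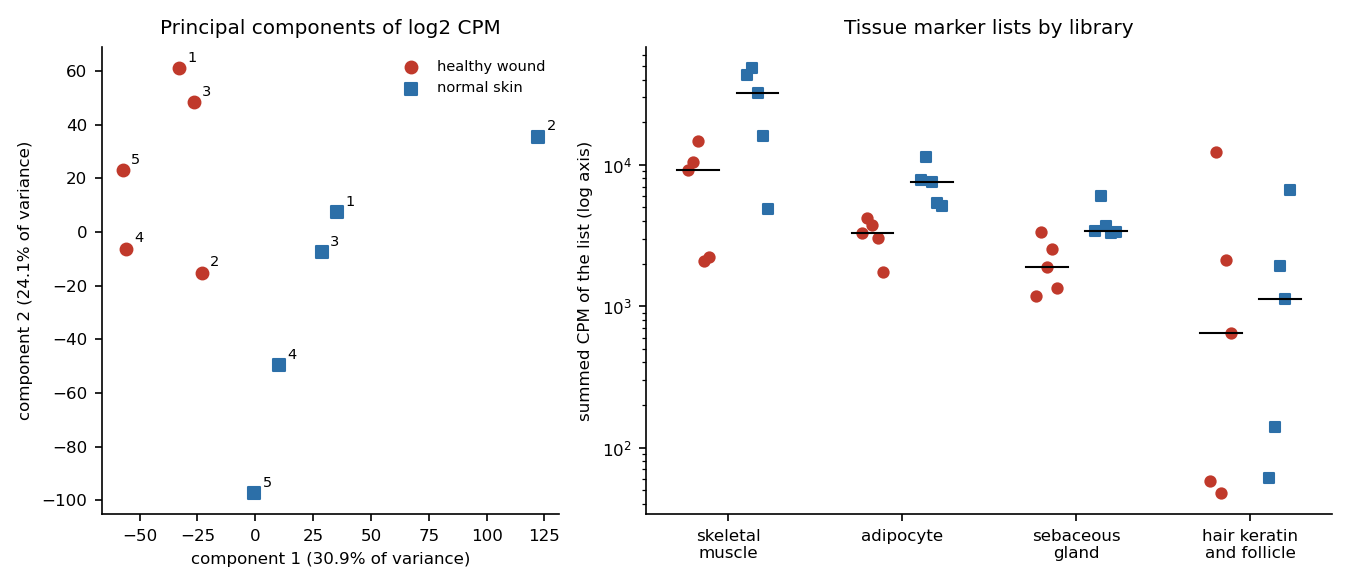
Left, the first 2 principal components of log2 CPM, each point 1 library labelled by replicate number; the x axis is component 1 (30.9% of the variance) and the y axis component 2 (24.1%). Right, the summed CPM of 4 tissue marker lists on a log axis, with healthy wounds as red circles, normal skin as blue squares and a line at each group's median. Healthy wounds lie left of normal skin on component 1, normal skin replicate 2 lies far to the right, and adipocyte RNA does not overlap between the groups.

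Of 16394 genes tested by the edgeR quasi-likelihood test, 537 passed an adjusted p of 0.05 and are here said to be called, which is 3.28% of the genes tested. They comprised 331 genes higher in healthy wounds (2.02%) and 206 lower (1.26%), and 3371 genes had an unadjusted p under 0.05. The median log2 fold change, healthy wound over normal skin, was 0.01 over all genes tested, and 51.3% of them were positive. Among the called genes 249 rose and 150 fell by at least 2-fold, and 96 rose and 46 fell by at least 4-fold. In 480 of the 537 the CPM of the groups did not overlap, as in 1145 of all genes tested (6.98%). The called share of 3.28% is to be set beside each count of list members below, and 1 call in a list says little about that list.

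The number of calls depended on single libraries. It was 124 without healthy wound replicate 1, 130 without replicate 3, 337 without replicate 4 and 166 without replicate 5. It was 206 without normal skin replicate 1, 339 without replicate 3 and 188 without replicate 4. Without normal skin replicate 2, the library that stood apart, it was 484, but 42 of the 120 called genes named in this text lost their call. Its effect differed between gene lists. Genes called higher went from 6 to 1 in the endothelial list and from 7 to 2 among myeloid pattern-recognition receptors. They went from 7 to 8 in the wound-edge keratinocyte list and from 2 to 4 among provisional matrix genes. In all 10 fits that left out a library, 99 genes remained called, 64 higher and 35 lower. Where a gene below is given with a single adjusted p under 0.05, it is among those 99. For other called genes given with an adjusted p, the highest adjusted p over these fits follows, with the library left out. The same was done for a log2 fold change that moved by more than 1.5-fold. Means are given ± SD (n = 5 each), and a value that opens a parenthesis with its SE is a log2 fold change, healthy wound over normal skin.

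**Figure D2:**
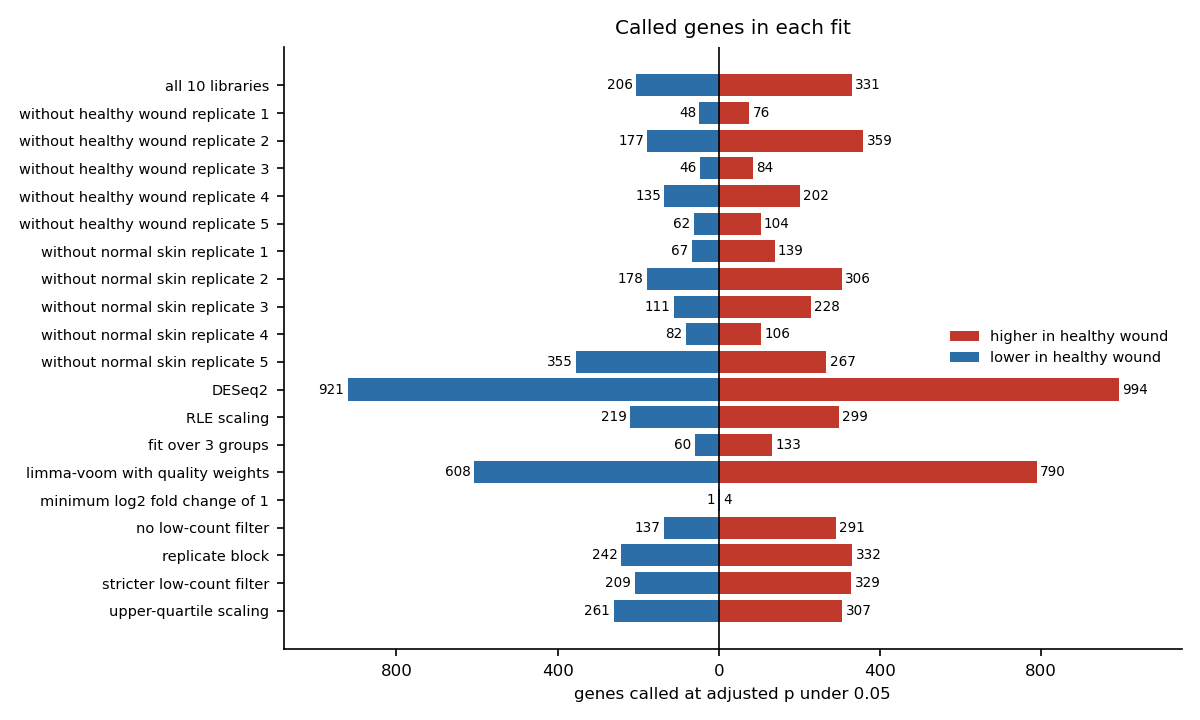
Number of genes called at an adjusted p under 0.05 in the fit of all 10 libraries, in fits that left out 1 library and under other settings. Red bars to the right count genes higher in healthy wound and blue bars to the left genes lower; the fit of all libraries gives 331 and 206, and leaving out healthy wound replicate 1 gives 76 and 48.

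Among called genes, Cxcl5 and Il24 had the largest rises. Cxcl5, which draws neutrophils through CXCR2 and lies at chromosome 5 from 90759360 to 90761624 in the table's coordinates (no build stated), measured 97.2, 40.4, 315, 16.4 and 47.3 CPM in healthy wounds, against 0.175, 0.48, 0.113, 0 and 0 CPM in normal skin. It was almost absent from normal skin, with 12 counts over its 5 libraries, and every wound lay above every normal library. Cxcl5 had a log2 fold change of 9.42 (SE 1.14, adjusted p = 0.00774, but log2 fold change 8.38 without healthy wound replicate 3 and log2 fold change 10.34 without normal skin replicate 2). Il24, an inducible cytokine of leukocytes and keratinocytes, measured 4.33, 3.04, 4.51, 5.04 and 2.56 CPM in healthy wounds, against 0.117, 0, 0.113, 0 and 0 CPM in normal skin. Il24 had a log2 fold change of 6.17 (SE 0.70, adjusted p = 0.00774). Its wound values lay within a narrow range, and in normal skin 3 libraries had no read. Its relative Il19 had 166 counts over the healthy wounds and 2 over normal skin, a ratio of 80.9 with a 95% counting interval of 22.1 to 674. That interval covers counting error only, not the spread between libraries. Cxcl5, Il24 and Il19 passed the low-count filter through the wounds alone, so the direction of their change was fixed in advance. Il24, Cxcl5, Arg1 and Tmprss11g rose and Pcolce2 fell by a tested margin of more than 2-fold (edgeR, minimum log2 fold change of 1). These were the 5 genes that passed that stricter test.

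**Figure D3:**
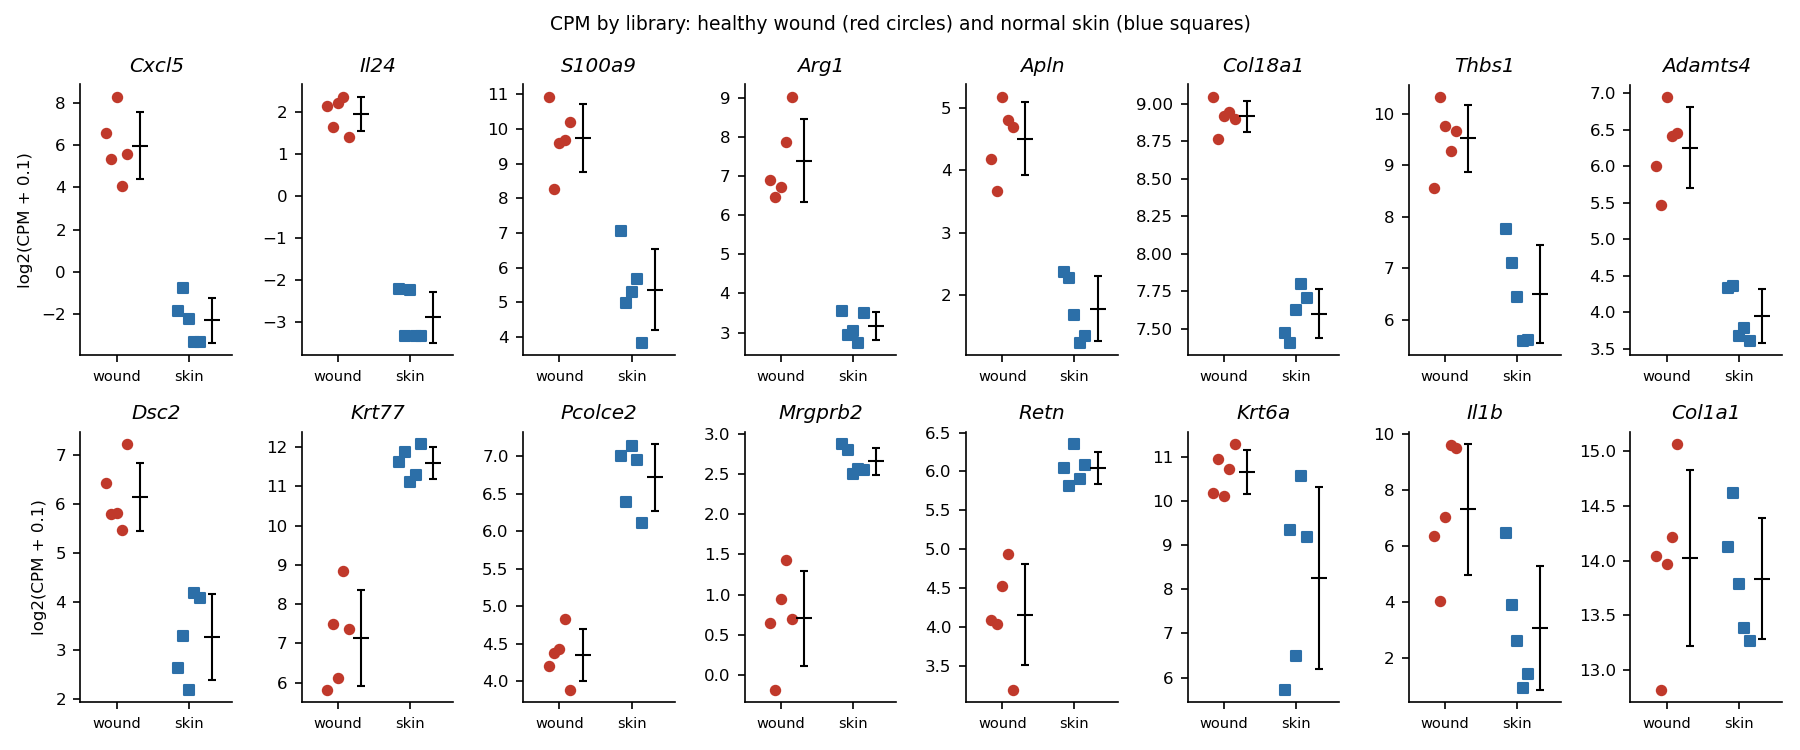
Log2(CPM + 0.1) of 16 genes in each library, wounds left as red circles and normal skin right as blue squares, with the mean and SD (n = 5 each) beside the points; each panel has its own y axis. In the panels from Cxcl5 to Dsc2 every wound lies above every normal library, in Krt77, Pcolce2, Mrgprb2 and Retn every wound lies below, and in Krt6a, Il1b and Col1a1 the groups overlap.

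Genes of neutrophils were among those that rose. Of 18 listed neutrophil granule and surface genes 12 could be tested, 5 rose (2 to 7 with a library left out) and 0 fell, and each of the 12 tested had a positive log2 fold change, with a median of 2.85. A gene that passed the low-count filter through the wounds alone had to be higher, so this count is a description. The same holds for the counts of positive members in the lists below. S100a9, a subunit of the antimicrobial protein calprotectin, measured 1955, 309, 775, 828 and 1172 CPM in healthy wounds, against 132, 31.3, 39.3, 50.7 and 14.1 CPM in normal skin. S100a9 had a log2 fold change of 4.24 (SE 0.67, adjusted p = 0.0145, but log2 fold change 4.90 without normal skin replicate 1). The lowest wound exceeded the highest normal library, which was normal skin replicate 1. Its partner subunit S100a8 averaged 809.5 ± 500.2 CPM in healthy wounds and 63.4 ± 61.3 CPM in normal skin. S100a8 had a log2 fold change of 3.67 (SE 0.72, adjusted p = 0.026, but adjusted p = 0.0735 without healthy wound replicate 1 and log2 fold change 4.40 without normal skin replicate 1). The neutrophil collagenase Mmp8 averaged 15.6 ± 2.55 CPM in healthy wounds and 1.39 ± 1.11 CPM in normal skin. Mmp8 had a log2 fold change of 3.47 (SE 0.48, adjusted p = 0.0135). Cxcr2, the receptor for Cxcl5, averaged 74.6 ± 41.4 CPM in healthy wounds and 15.4 ± 4.53 CPM in normal skin. Cxcr2 had a log2 fold change of 2.27 (SE 0.46, adjusted p = 0.0294, but adjusted p = 0.0792 without healthy wound replicate 1). Of the 6 listed genes that were not tested, Ltf, Ngp, Camp, Mpo and Elane encode proteins of granules made before neutrophils leave the marrow, and Ly6g is a surface marker.

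Receptor genes of myeloid cells rose in part. Of 19 genes for pattern-recognition receptors 7 rose and 0 fell, all 19 were positive, and the median log2 fold change was 1.84. The formyl peptide receptor gene Fpr1 measured 11.3, 3.1, 16.5, 15.5 and 25.4 CPM in healthy wounds, against 2.57, 1.71, 2.54, 1.52 and 0.511 CPM in normal skin. Fpr1 had a log2 fold change of 3.02 (SE 0.56, adjusted p = 0.0218, but adjusted p = 0.066 without normal skin replicate 4). The groups did not overlap, and healthy wound replicate 2 was the lowest wound. Its relative Fpr2 rose (3.13, SE 0.65, adjusted p = 0.0319, but adjusted p = 0.0839 without healthy wound replicate 1). The Toll-like receptor genes Tlr2 (1.48, SE 0.30, adjusted p = 0.0294, but adjusted p = 0.0825 without healthy wound replicate 1), Tlr6 (1.72, SE 0.41, adjusted p = 0.0495, but adjusted p = 0.136 without healthy wound replicate 1) and Tlr13 (1.93, SE 0.44, adjusted p = 0.0436, but adjusted p = 0.121 without healthy wound replicate 1) rose. The lectin gene Clec5a rose (1.60, SE 0.34, adjusted p = 0.0348, but adjusted p = 0.0975 without healthy wound replicate 1), as did the inflammasome sensor gene Nlrp3 (3.38, SE 0.75, adjusted p = 0.038, but adjusted p = 0.0933 without normal skin replicate 4 and log2 fold change 4.04 without normal skin replicate 1). These were the 7 called members, and the fits that left out a library called 0 to 10 of the list. Cd300lf, an inhibitory receptor of myeloid cells from a family of similar genes, averaged 40.8 ± 18.1 CPM in healthy wounds and 2.77 ± 3.04 CPM in normal skin. Cd300lf had a log2 fold change of 3.87 (SE 0.76, adjusted p = 0.0269, but adjusted p = 0.0762 without healthy wound replicate 1 and log2 fold change 4.71 without normal skin replicate 3). Of 14 leukocyte adhesion genes 1 rose (0 to 3 with a library left out). All 14 were positive, with a median of 1.22.

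The lists of CXCR2 ligands and of CC chemokines with their receptors gave 4 calls. Beside Cxcl5, 0 of the other 7 tested CXCR2 ligands and granulocyte growth factors were called, and all 8 were positive with a median of 3.22. Cxcl5 and Cxcl3 passed the low-count filter through the wounds alone and had to be positive, so this count is a description. Cxcl3 measured 13.3, 4.15, 13.2, 95.5 and 143 CPM in healthy wounds, against 9.12, 0, 0, 0 and 0.114 CPM in normal skin, with most of its wound RNA in replicates 4 and 5 and a normal library of 9.12 CPM. Cxcl3 had a log2 fold change of 4.86 (SE 1.63, adjusted p = 0.123). Of 20 CC chemokine and receptor genes 3 rose (0 to 3 with a library left out). The monocyte attractant Ccl2 rose (2.84, SE 0.68, adjusted p = 0.0493, but adjusted p = 0.118 without healthy wound replicate 1). Ccl7, a related attractant, measured 54.1, 48, 92, 18.5 and 26.2 CPM in healthy wounds, against 10.4, 11.9, 14.8, 14.7 and 4.94 CPM in normal skin, and the groups did not overlap. Ccl7 had a log2 fold change of 2.07 (SE 0.44, adjusted p = 0.0343, but adjusted p = 0.0894 without healthy wound replicate 1).

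The best known inflammatory cytokines did not pass the test. Il1b measured 82, 16.2, 132, 777 and 728 CPM in healthy wounds, against 87.6, 14.7, 6.04, 1.8 and 2.61 CPM in normal skin. Il1b had a log2 fold change of 3.94 (SE 1.31, adjusted p = 0.121). Wound replicates 4 and 5 were far above the other wounds, and normal skin replicate 1 was slightly above wound replicate 1. Il6 averaged 3.67 ± 4 CPM in healthy wounds and 0.797 ± 1.02 CPM in normal skin. Il6 had a log2 fold change of 2.21 (SE 1.08, adjusted p = 0.279). Tnf averaged 15 ± 16.8 CPM in healthy wounds and 3.43 ± 5.05 CPM in normal skin. Tnf had a log2 fold change of 2.12 (SE 1.02, adjusted p = 0.272). Within the list of 23 interleukin 1, interleukin 6 and TNF family genes 3 rose (0 to 3 with a library left out) and 21 were positive (median 0.74). The alarmin gene Il33 averaged 298 ± 159 CPM in healthy wounds and 86.4 ± 32.7 CPM in normal skin. Il33 had a log2 fold change of 1.79 (SE 0.40, adjusted p = 0.0419, but adjusted p = 0.0961 without healthy wound replicate 1). The feedback inhibitor gene Socs3 averaged 174 ± 119 CPM in healthy wounds and 46.9 ± 11.8 CPM in normal skin. Socs3 had a log2 fold change of 1.90 (SE 0.38, adjusted p = 0.0288, but adjusted p = 0.0739 without healthy wound replicate 1). The co-receptor gene Il1rap averaged 59.5 ± 12.3 CPM in healthy wounds and 37.1 ± 3.1 CPM in normal skin. Il1rap had a log2 fold change of 0.68 (SE 0.16, adjusted p = 0.046, but adjusted p = 0.108 without normal skin replicate 4). In the interleukin 10 and 20 family, the shared receptor subunit gene Il10rb rose beside Il19 and Il24. Il10rb had a log2 fold change of 0.83 (SE 0.20, adjusted p = 0.0479, but adjusted p = 0.147 without healthy wound replicate 1).

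Of the macrophage genes, 2 that use arginine rose and the others were not called. Arg1, the arginase that turns arginine into ornithine, lies at chromosome 10 from 24915221 to 24927484 and measured 118, 88.7, 105, 235 and 522 CPM in healthy wounds, against 11.7, 7.61, 8.18, 6.57 and 11.2 CPM in normal skin. Arg1 had a log2 fold change of 4.56 (SE 0.53, adjusted p = 0.00774, but log2 fold change 3.92 without healthy wound replicate 5). The normal libraries lay within a narrow range and every wound lay above all of them. Nos2, which makes nitric oxide from the same substrate, measured 7.42, 2.05, 13.1, 34.6 and 91.8 CPM in healthy wounds, against 2.11, 3.98, 0.959, 0.618 and 1.65 CPM in normal skin. Nos2 had a log2 fold change of 4.01 (SE 0.95, adjusted p = 0.0484, but adjusted p = 0.108 without normal skin replicate 4 and log2 fold change 2.95 without healthy wound replicate 5). Healthy wound replicate 2 lay inside the normal range. Retnla, a marker of macrophages activated through interleukin 4 in mice, averaged 3.06 ± 3.73 CPM in healthy wounds and 78.2 ± 62.1 CPM in normal skin, and this difference missed the threshold. Retnla had a log2 fold change of -4.67 (SE 1.13, adjusted p = 0.0504). Arg1 and Nos2 were the 2 called of 24 macrophage genes, of which 19 were positive with a median of 0.48, and the same 2 were called among 13 genes of arginine, nitric oxide and polyamine metabolism.

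Single genes of resident skin immune cells were called lower, while the medians of their lists were near 0. Cd207, which encodes the Langerhans cell lectin langerin, averaged 4.19 ± 1.05 CPM in healthy wounds and 13.3 ± 5.47 CPM in normal skin. Cd207 had a log2 fold change of -1.67 (SE 0.33, adjusted p = 0.0291, but adjusted p = 0.0785 without healthy wound replicate 1). Xcr1, the chemokine receptor of cross-presenting dendritic cells, measured 1.46, 1.05, 0.586, 0.566 and 0.487 CPM in healthy wounds, against 2.81, 3.5, 2.76, 2.36 and 3.75 CPM in normal skin. Xcr1 had a log2 fold change of -1.86 (SE 0.38, adjusted p = 0.0294, but adjusted p = 0.0772 without healthy wound replicate 3). These were the 2 called of 16 genes for dendritic cells and MHC class II, 11 of which were positive (median 0.05). Mrgprb2, the mast cell receptor for basic secretagogues in mice, measured 1.46, 0.775, 1.82, 2.6 and 1.52 CPM in healthy wounds, against 7.25, 6.86, 5.58, 5.84 and 5.79 CPM in normal skin. Mrgprb2 had a log2 fold change of -1.93 (SE 0.31, adjusted p = 0.0151). Every wound lay below every normal library, and it was the 1 called gene of 9 mast cell genes. Of these 9 genes 6 were negative and 3 positive, with a median of -0.13 and a highest log2 fold change of 2.99. The pseudogene Mrgprb11-ps, whose sequence resembles the other Mrgprb genes so that reads may be shared, averaged 1.33 ± 1.5 CPM in healthy wounds and 10.2 ± 3.86 CPM in normal skin. Mrgprb11-ps had a log2 fold change of -2.92 (SE 0.67, adjusted p = 0.0436, but adjusted p = 0.104 without healthy wound replicate 5 and log2 fold change -3.87 without healthy wound replicate 4). Of 17 T cell and cytotoxic cell genes 0 were called by edgeR and 4 had an unadjusted p under 0.05.

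Interferon-stimulated genes were nearly all positive, 21 of 22 with a median of 1.30, and 3 rose (0 to 3 with a library left out). Oas1a (1.18, SE 0.27, adjusted p = 0.0419, but adjusted p = 0.105 without healthy wound replicate 1), which has near copies, and Oas3 (2.31, SE 0.54, adjusted p = 0.0458, but adjusted p = 0.112 without healthy wound replicate 1), sensors of double-stranded RNA, rose. Ifi44 rose too (2.15, SE 0.44, adjusted p = 0.0301, but adjusted p = 0.0743 without healthy wound replicate 1). Wound replicate 1 was the highest wound for all 3, and without it the adjusted p of each was above the threshold. Among 21 complement and acute-phase genes 1 rose (0 to 2 with a library left out) and 2 fell (1 to 3). Saa3, the serum amyloid A made in tissues of the mouse, measured 1353, 188, 708, 668 and 428 CPM in healthy wounds, against 26.7, 14.1, 103, 35.3 and 6.87 CPM in normal skin. Saa3 had a log2 fold change of 4.17 (SE 0.78, adjusted p = 0.0222, but adjusted p = 0.0661 without normal skin replicate 4 and log2 fold change 5.01 without normal skin replicate 3). All wounds exceeded all normal libraries. The complement gene C7 measured 13.3, 17.7, 19.8, 44.7 and 22 CPM in healthy wounds, against 224, 57.1, 244, 254 and 109 CPM in normal skin, with no overlap. C7 had a log2 fold change of -2.92 (SE 0.46, adjusted p = 0.0149). Orm1, an acute-phase glycoprotein of plasma, averaged 24.7 ± 5.85 CPM in healthy wounds and 61 ± 16.1 CPM in normal skin. Orm1 had a log2 fold change of -1.31 (SE 0.23, adjusted p = 0.0181, but adjusted p = 0.054 without healthy wound replicate 3).

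Col18a1, Col4a1 and Col4a2 rose, and the main fibrillar collagen genes Col1a1, Col1a2 and Col3a1 did not pass the test. Col18a1, the source of endostatin, lies at chromosome 10 from 77052178 to 77166548 and measured 529, 435, 484, 494 and 476 CPM in healthy wounds, against 177, 169, 197, 223 and 208 CPM in normal skin. Col18a1 had a log2 fold change of 1.31 (SE 0.13, adjusted p = 0.00585). The wounds lay within a narrow range, and the gap between groups was wider than the range of either. Col4a1 averaged 1527 ± 301 CPM in healthy wounds and 673 ± 118 CPM in normal skin. Col4a1 had a log2 fold change of 1.18 (SE 0.19, adjusted p = 0.0159). Col4a2, its partner chain, averaged 932 ± 176 CPM in healthy wounds and 438 ± 84.6 CPM in normal skin. Col4a2 had a log2 fold change of 1.09 (SE 0.19, adjusted p = 0.0184, but adjusted p = 0.0593 without healthy wound replicate 1). The minor fibrillar chain gene Col5a3 averaged 449 ± 304 CPM in healthy wounds and 144 ± 18.5 CPM in normal skin. Col5a3 had a log2 fold change of 1.64 (SE 0.38, adjusted p = 0.0441, but adjusted p = 0.106 without normal skin replicate 4). Col1a1 measured 16870, 7215, 16060, 19070 and 34290 CPM in healthy wounds, against 17870, 25190, 14110, 10700 and 9856 CPM in normal skin, with the lowest and the highest value both among the wounds. Col1a1 had a log2 fold change of 0.27 (SE 0.41, adjusted p = 0.784). Col1a2 (0.31, SE 0.38, adjusted p = 0.716) and Col3a1 (0.73, SE 0.36, adjusted p = 0.286) overlapped likewise. Of 18 collagen genes 4 rose (2 to 5 with a library left out) and 0 fell (median 0.97). Of 17 collagen IV and laminin chain genes, grouped after the values were seen, 4 rose and 3 fell (median -0.18), with 1 to 5 higher and 0 to 4 lower calls when a library was left out.

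Genes for finishing and cross-linking collagen rose in 2 of 15 cases, with 13 positive. Plod2, which hydroxylates lysines for stable cross-links, rose (log2 fold change 1.91, SE 0.46, adjusted p = 0.049, but adjusted p = 0.11 without normal skin replicate 4 and log2 fold change 1.31 without healthy wound replicate 5). The lysyl oxidase relative Loxl3 rose too. Loxl3 had a log2 fold change of 1.73 (SE 0.35, adjusted p = 0.0298, but adjusted p = 0.0865 without healthy wound replicate 1). Pcolce2, an enhancer of procollagen processing outside that list, lies at chromosome 9 from 95637601 to 95698096 and measured 18.4, 20.8, 21.5, 28.4 and 14.7 CPM in healthy wounds, against 128, 83.8, 141, 124 and 69.1 CPM in normal skin. Pcolce2 had a log2 fold change of -2.40 (SE 0.24, adjusted p = 0.00585). Every wound was below every normal library. Hmcn2, a hemicentin of the extracellular matrix, averaged 27.9 ± 10.2 CPM in healthy wounds and 174 ± 74.8 CPM in normal skin. Hmcn2 had a log2 fold change of -2.64 (SE 0.39, adjusted p = 0.0145). Of the 16 proteoglycan and elastic fibre genes 3 rose (0 to 3 with a library left out) and 0 fell, with 9 positive and 7 negative (median 0.28). The small proteoglycan Bgn rose (1.48, SE 0.29, adjusted p = 0.0259, but adjusted p = 0.0797 without healthy wound replicate 1). The elastic fibre genes Fbln5 (0.87, SE 0.18, adjusted p = 0.0294, but adjusted p = 0.0869 without healthy wound replicate 1) and Emilin1 (1.49, SE 0.30, adjusted p = 0.029, but adjusted p = 0.0803 without healthy wound replicate 1) rose as well.

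Of the provisional matrix genes 14 of 15 were positive (median 0.79) and 2 rose (1 to 4 with a library left out). Thbs1, thrombospondin 1, measured 375, 1282, 869, 621 and 808 CPM in healthy wounds, against 218, 138, 86.1, 47.7 and 48.9 CPM in normal skin. Thbs1 had a log2 fold change of 2.88 (SE 0.49, adjusted p = 0.0164). No normal library reached the lowest wound. Has2, which makes hyaluronan, averaged 19 ± 6.89 CPM in healthy wounds and 6.87 ± 1.35 CPM in normal skin. Has2 had a log2 fold change of 1.47 (SE 0.26, adjusted p = 0.0183, but adjusted p = 0.0567 without normal skin replicate 4). Tnc, tenascin C, averaged 1286 ± 896 CPM in healthy wounds and 189.7 ± 244 CPM in normal skin and was not called, with normal skin replicate 2 at 622 CPM inside the wound range. Tnc had a log2 fold change of 2.76 (SE 0.79, adjusted p = 0.0801). Postn (1.43, SE 0.63, adjusted p = 0.228) and Spp1 (3.25, SE 0.99, adjusted p = 0.096) were not called either.

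Matrix proteases and their inhibitors held 7 calls. Of 22 MMP, ADAMTS and TIMP genes 6 rose and 1 fell (median 1.28; 5 to 7 and 0 to 1 with a library left out), and Mmp8 was among those that rose. Adamts4, an aggrecanase, measured 63.8, 44.1, 124, 85.2 and 87.8 CPM in healthy wounds, against 20.1, 20.5, 12.6, 13.7 and 12.1 CPM in normal skin. Adamts4 had a log2 fold change of 2.36 (SE 0.28, adjusted p = 0.00774). Its groups did not overlap. Adam8 averaged 148 ± 52.1 CPM in healthy wounds and 31.1 ± 14.7 CPM in normal skin. Adam8 had a log2 fold change of 2.26 (SE 0.34, adjusted p = 0.0145). The stromelysin gene Mmp10 averaged 8.06 ± 2.53 CPM in healthy wounds and 0.645 ± 0.374 CPM in normal skin. Mmp10 had a log2 fold change of 3.63 (SE 0.53, adjusted p = 0.0145). Its relative Mmp11 averaged 63.4 ± 35 CPM in healthy wounds and 11.5 ± 6.75 CPM in normal skin. Mmp11 had a log2 fold change of 2.46 (SE 0.47, adjusted p = 0.025, but adjusted p = 0.0692 without normal skin replicate 4). The inhibitor Timp1 measured 147, 48.4, 325, 149 and 156 CPM in healthy wounds, against 18.4, 31.3, 29.1, 20.3 and 13.6 CPM in normal skin, and replicate 3 was the highest wound. Timp1 had a log2 fold change of 2.87 (SE 0.44, adjusted p = 0.0145). Timp4 was lower, at 3.45 ± 2.0 CPM in healthy wounds and 15 ± 5.14 CPM in normal skin. Timp4 had a log2 fold change of -2.11 (SE 0.40, adjusted p = 0.0236, but adjusted p = 0.0755 without healthy wound replicate 1).

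Genes controlling plasmin and clotting rose in 4 of 15 cases. Plaur, the urokinase receptor, averaged 73.4 ± 51.4 CPM in healthy wounds and 10.2 ± 8.78 CPM in normal skin. Plaur had a log2 fold change of 2.85 (SE 0.67, adjusted p = 0.046, but adjusted p = 0.11 without normal skin replicate 4 and log2 fold change 3.52 without normal skin replicate 1). The protease inhibitor gene Tfpi2 averaged 17.7 ± 6.27 CPM in healthy wounds and 3.9 ± 1.54 CPM in normal skin. Tfpi2 had a log2 fold change of 2.18 (SE 0.34, adjusted p = 0.0145). F10, coagulation factor X, averaged 16.9 ± 15.1 CPM in healthy wounds and 3.13 ± 1.22 CPM in normal skin. F10 had a log2 fold change of 2.42 (SE 0.58, adjusted p = 0.0495, but adjusted p = 0.102 without normal skin replicate 1 and log2 fold change 1.74 without healthy wound replicate 5).

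Fibroblast genes were called in both directions. Of 16 resting fibroblast genes 3 fell (1 to 3 with a library left out) and 0 rose, with 13 negative (median -0.64). Abca8a, a lipid transporter, measured 22.8, 13, 19.2, 24.7 and 24.3 CPM in healthy wounds, against 77.8, 81, 90, 71.6 and 35.4 CPM in normal skin. Abca8a had a log2 fold change of -1.78 (SE 0.26, adjusted p = 0.0145). The wounds all lay below normal skin. Gsn, gelsolin, averaged 837 ± 107 CPM in healthy wounds and 2615 ± 1260 CPM in normal skin. Gsn had a log2 fold change of -1.64 (SE 0.36, adjusted p = 0.0362, but adjusted p = 0.0975 without healthy wound replicate 1). The ferritin receptor gene Scara5 averaged 67.3 ± 35.8 CPM in healthy wounds and 252 ± 102 CPM in normal skin. Scara5 had a log2 fold change of -1.90 (SE 0.42, adjusted p = 0.037, but adjusted p = 0.0954 without healthy wound replicate 1). Of 14 activated fibroblast genes 3 rose (1 to 5 with a library left out) and 13 were positive (median 0.74). Inhba, which forms activin A, measured 21.6, 34.4, 55.6, 63.6 and 86.6 CPM in healthy wounds, against 10.7, 14.3, 4.51, 4.16 and 7.55 CPM in normal skin. Inhba had a log2 fold change of 2.67 (SE 0.45, adjusted p = 0.0164). Itga5, the fibronectin receptor subunit, rose (1.91, SE 0.36, adjusted p = 0.0229, but adjusted p = 0.0688 without normal skin replicate 4). Wisp1 rose (2.30, SE 0.54, adjusted p = 0.0469, but adjusted p = 0.106 without healthy wound replicate 5). The adipocyte sums given above were also lower in the wounds, and their part in these results was not tested.

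Contractile genes gave 1 call of 13. Cald1, caldesmon, averaged 298 ± 32 CPM in healthy wounds and 143 ± 29.4 CPM in normal skin. Cald1 had a log2 fold change of 1.06 (SE 0.16, adjusted p = 0.0145). Acta2, the smooth muscle actin of myofibroblasts, measured 440, 267, 269, 249.8 and 240.3 CPM in healthy wounds, against 137, 142, 224, 91.3 and 104 CPM in normal skin, so that the wounds lay above normal skin without passing the test. Acta2 had a log2 fold change of 1.07 (SE 0.26, adjusted p = 0.0533). Growth factor genes gave 4 rises (0 to 4 with a library left out) and 1 fall of 19. Of the listed epidermal growth factor receptor ligands, Areg rose and Ereg fell, and Hbegf and Tgfa were not called. Areg measured 14.5, 20.8, 8.27, 7.53 and 8.82 CPM in healthy wounds, against 2.92, 0.617, 2.26, 1.85 and 3.63 CPM in normal skin. Areg had a log2 fold change of 2.40 (SE 0.45, adjusted p = 0.0232, but adjusted p = 0.0698 without healthy wound replicate 1). Ereg measured 21.5, 18.5, 29.5, 39.2 and 24.2 CPM in healthy wounds, against 104, 111, 67, 66 and 103 CPM in normal skin. Ereg had a log2 fold change of -1.76 (SE 0.24, adjusted p = 0.0134). Neither gene overlapped between groups. Hgf, a motility factor for epithelium, rose (1.65, SE 0.39, adjusted p = 0.0479, but adjusted p = 0.11 without normal skin replicate 4). The angiogenic factors Angpt2 (2.15, SE 0.44, adjusted p = 0.0305, but adjusted p = 0.0843 without healthy wound replicate 1) and Pgf (2.40, SE 0.45, adjusted p = 0.0223, but adjusted p = 0.0725 without healthy wound replicate 1) rose. Tgfb1 (1.03, SE 0.25, adjusted p = 0.0518) and Vegfa (0.65, SE 0.32, adjusted p = 0.28) were not called.

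Genes of blood vessels rose in part. Of 17 endothelial genes 6 rose (1 to 8 with a library left out) and 16 were positive, with a median of 1.19. Apln, the peptide apelin of sprouting vessel tips, measured 18.1, 12.6, 36.1, 27.8 and 25.9 CPM in healthy wounds, against 5.09, 4.73, 3.1, 2.25 and 2.44 CPM in normal skin. Apln had a log2 fold change of 2.77 (SE 0.34, adjusted p = 0.00774). The groups did not overlap. Esm1, another tip cell gene, rose (3.81, SE 0.86, adjusted p = 0.0419, but adjusted p = 0.0905 without healthy wound replicate 5 and log2 fold change 3.17 without healthy wound replicate 4). The vascular cadherin gene Cdh5 rose (1.46, SE 0.33, adjusted p = 0.0423, but adjusted p = 0.122 without healthy wound replicate 1). The receptor gene Tie1 (1.50, SE 0.35, adjusted p = 0.0471, but adjusted p = 0.136 without healthy wound replicate 1) and the sialomucin gene Emcn (1.39, SE 0.33, adjusted p = 0.0484, but adjusted p = 0.132 without healthy wound replicate 1) rose. The transcription factor gene Sox18 rose (1.19, SE 0.26, adjusted p = 0.0387, but adjusted p = 0.0893 without healthy wound replicate 1). Wound replicate 2 was the lowest wound for Cdh5, Tie1, Emcn and Sox18. The pan-endothelial gene Pecam1 averaged 273 ± 88.6 CPM in healthy wounds and 116 ± 40.4 CPM in normal skin and was not called. Pecam1 had a log2 fold change of 1.24 (SE 0.31, adjusted p = 0.0548).

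Wound-edge keratinocyte genes held 7 rises (3 to 8 with a library left out) and 0 falls of 23, with 20 positive and a median of 1.44, but the classical stress keratins were not among the calls. Krt6a measured 1170, 1983, 1107, 1687 and 2511 CPM in healthy wounds, against 52.4, 654, 89.5, 1512 and 582 CPM in normal skin. Krt6a had a log2 fold change of 1.55 (SE 0.75, adjusted p = 0.274). The wounds were high and the normal libraries spread over a wide range, with normal skin replicate 4 inside the wound range. Krt6b (1.71, SE 1.02, adjusted p = 0.385), a near copy of Krt6a with which reads may be shared, Krt16 (1.15, SE 0.76, adjusted p = 0.442) and Krt17 (1.37, SE 0.64, adjusted p = 0.26) overlapped too and were not called. The desmosomal cadherin gene Dsc2 measured 86.2, 55.9, 56, 44.2 and 150.1 CPM in healthy wounds, against 6.14, 9.74, 4.46, 18.1 and 16.8 CPM in normal skin. Dsc2 had a log2 fold change of 2.83 (SE 0.47, adjusted p = 0.0164). Its groups did not overlap. The serine protease inhibitor Serpinb3a averaged 55.7 ± 50.9 CPM in healthy wounds and 3.21 ± 2.49 CPM in normal skin. Serpinb3a had a log2 fold change of 4.11 (SE 0.69, adjusted p = 0.0164, but log2 fold change 3.37 without healthy wound replicate 1). The envelope precursor gene Sprr2i averaged 41.1 ± 40.8 CPM in healthy wounds and 1.55 ± 0.736 CPM in normal skin. Sprr2i had a log2 fold change of 4.73 (SE 0.86, adjusted p = 0.0208, but adjusted p = 0.0536 without healthy wound replicate 3 and log2 fold change 4.0 without healthy wound replicate 1). Serpinb3a and Sprr2i have near-identical neighbours, so their counts are uncertain. Mmp10, Plaur and Itga5 belong to this list too, and Dsc2 was also among the 2 called of 19 desmosome and hemidesmosome genes.

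The largest fall among called genes was that of an epidermal keratin gene. Krt77, a keratin of the suprabasal epidermis, lies at chromosome 15 from 101858731 to 101869705 and measured 56.1, 182, 69.2, 463 and 165 CPM in healthy wounds, against 3166, 3759, 2211, 2516 and 4324 CPM in normal skin. Krt77 had a log2 fold change of -4.09 (SE 0.58, adjusted p = 0.0143, but log2 fold change -4.76 without healthy wound replicate 4). The highest wound, replicate 4, was below the lowest normal library. Krt77 was the 1 called gene of 8 tested interfollicular keratin genes. Krt5 (-0.31, SE 0.45, adjusted p = 0.765), Krt14 (0.70, SE 0.45, adjusted p = 0.436), Krt1 (-0.69, SE 0.66, adjusted p = 0.619) and Krt10 (-1.50, SE 0.64, adjusted p = 0.211) overlapped. Of 21 cornified envelope genes edgeR called 0, with 3 at an unadjusted p under 0.05, and of 15 barrier lipid enzymes Dgat2, the last step of triglyceride synthesis, fell. Dgat2 had a log2 fold change of -1.10 (SE 0.19, adjusted p = 0.0164). Skint5, of a family of skin-expressed butyrophilin-like genes with similar copies, averaged 2.63 ± 1.54 CPM in healthy wounds and 22.8 ± 6.6 CPM in normal skin. Skint5 had a log2 fold change of -3.11 (SE 0.39, adjusted p = 0.00774).

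Of 6 tested Tmprss11 genes, airway-type serine proteases that resemble each other so that reads may be shared, 3 rose and 1 was negative. With a library left out, 1 to 2 of them were called higher. Tmprss11g measured 71.1, 21.7, 50.4, 22 and 60.3 CPM in healthy wounds, against 2.92, 2.61, 0.959, 4.16 and 2.78 CPM in normal skin. Tmprss11g had a log2 fold change of 4.07 (SE 0.47, adjusted p = 0.00774). Tmprss11b averaged 27.8 ± 17.1 CPM in healthy wounds and 1.05 ± 1.38 CPM in normal skin. Tmprss11b had a log2 fold change of 4.70 (SE 1.02, adjusted p = 0.0363, but adjusted p = 0.0906 without normal skin replicate 1 and log2 fold change 5.80 without normal skin replicate 4). Every wound exceeded every normal library for both. Of 12 tested antimicrobial genes 3 rose and 1 fell (median 1.59; 1 to 3 and 0 to 1 with a library left out). Slpi, which inhibits neutrophil elastase, measured 79.6, 67.9, 91.4, 109 and 159.7 CPM in healthy wounds, against 26.3, 6.86, 12.6, 10.4 and 11.9 CPM in normal skin. Slpi had a log2 fold change of 2.90 (SE 0.37, adjusted p = 0.00774). Lcn2, a lipocalin that binds bacterial siderophores, averaged 145 ± 90.8 CPM in healthy wounds and 20.8 ± 17.3 CPM in normal skin. Lcn2 had a log2 fold change of 2.80 (SE 0.58, adjusted p = 0.0313, but adjusted p = 0.0843 without healthy wound replicate 1 and log2 fold change 3.45 without normal skin replicate 3). Defb1, a beta-defensin, averaged 38.6 ± 9.95 CPM in healthy wounds and 17.5 ± 6.26 CPM in normal skin. Defb1 had a log2 fold change of 1.14 (SE 0.27, adjusted p = 0.0462, but adjusted p = 0.103 without healthy wound replicate 3). Lyz1, a lysozyme gene with a close copy, was lower. Lyz1 had a log2 fold change of -2.50 (SE 0.53, adjusted p = 0.0341, but adjusted p = 0.0884 without healthy wound replicate 5).

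Several lipid-making genes of fat and sebaceous gland fell. All 22 adipocyte genes were negative with a median of -1.18, and 6 fell (3 to 7 with a library left out). Retn, the adipocyte hormone resistin, measured 16.9, 16.4, 22.9, 30.6 and 9.0 CPM in healthy wounds, against 66, 56.1, 81.6, 59.6 and 67.8 CPM in normal skin. Retn had a log2 fold change of -1.79 (SE 0.28, adjusted p = 0.0145). Each wound lay below each normal library. Fasn, fatty acid synthase, measured 191, 367, 258, 307 and 201 CPM in healthy wounds, against 904, 2431, 1003, 653 and 866 CPM in normal skin, with normal skin replicate 2 the highest. Fasn had a log2 fold change of -2.15 (SE 0.37, adjusted p = 0.0171, but adjusted p = 0.0566 without healthy wound replicate 1). Thrsp, a regulator of fat synthesis, averaged 13.8 ± 5.61 CPM in healthy wounds and 64.6 ± 21.6 CPM in normal skin. Thrsp had a log2 fold change of -2.23 (SE 0.32, adjusted p = 0.0143). The activin-type receptor gene Acvr1c averaged 3.85 ± 1.49 CPM in healthy wounds and 17.8 ± 9.63 CPM in normal skin. Acvr1c had a log2 fold change of -2.21 (SE 0.40, adjusted p = 0.0208, but adjusted p = 0.0671 without healthy wound replicate 1). Acaca, acetyl-CoA carboxylase, averaged 68.4 ± 11.9 CPM in healthy wounds and 165 ± 60.4 CPM in normal skin. Acaca had a log2 fold change of -1.27 (SE 0.23, adjusted p = 0.0208, but adjusted p = 0.0621 without healthy wound replicate 1). The adipocyte hormones Adipoq (-1.18, SE 0.35, adjusted p = 0.0878) and Lep (-0.75, SE 0.50, adjusted p = 0.449) were not called.

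Of 17 sebaceous gland genes 14 were negative. The desaturase gene Scd1 averaged 823 ± 354 CPM in healthy wounds and 2725 ± 1030 CPM in normal skin. Scd1 had a log2 fold change of -1.73 (SE 0.35, adjusted p = 0.0301, but adjusted p = 0.0772 without healthy wound replicate 3). Scd3, a close relative with which reads may be shared, averaged 8.08 ± 5.17 CPM in healthy wounds and 62.5 ± 32.2 CPM in normal skin. Scd3 had a log2 fold change of -2.95 (SE 0.50, adjusted p = 0.0166, but adjusted p = 0.0535 without healthy wound replicate 3). The lipid droplet coat gene Plin2 rose instead. Plin2 had a log2 fold change of 0.89 (SE 0.18, adjusted p = 0.0293, but adjusted p = 0.0942 without healthy wound replicate 1). Awat2, Adipoq and Ckm, defining markers of sebocytes, adipocytes and muscle, had counts in every library. All 19 skeletal muscle genes were negative with a median of -1.97, but the spread between libraries was wide and 1 fell (0 to 5 with a library left out). Pvalb, parvalbumin of fast fibres, measured 37.3, 34.5, 45.7, 32.6 and 14.8 CPM in healthy wounds, against 742, 139, 254, 87.4 and 45.9 CPM in normal skin. Pvalb had a log2 fold change of -2.94 (SE 0.69, adjusted p = 0.0462, but adjusted p = 0.112 without healthy wound replicate 1 and log2 fold change -1.99 without normal skin replicate 1). Ckm (-1.70, SE 0.61, adjusted p = 0.146) and Acta1 (-1.53, SE 0.73, adjusted p = 0.271) were not called. Of 20 tested hair keratin and follicle genes edgeR called 0, and 0 had an unadjusted p under 0.05.

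**Figure D4:**
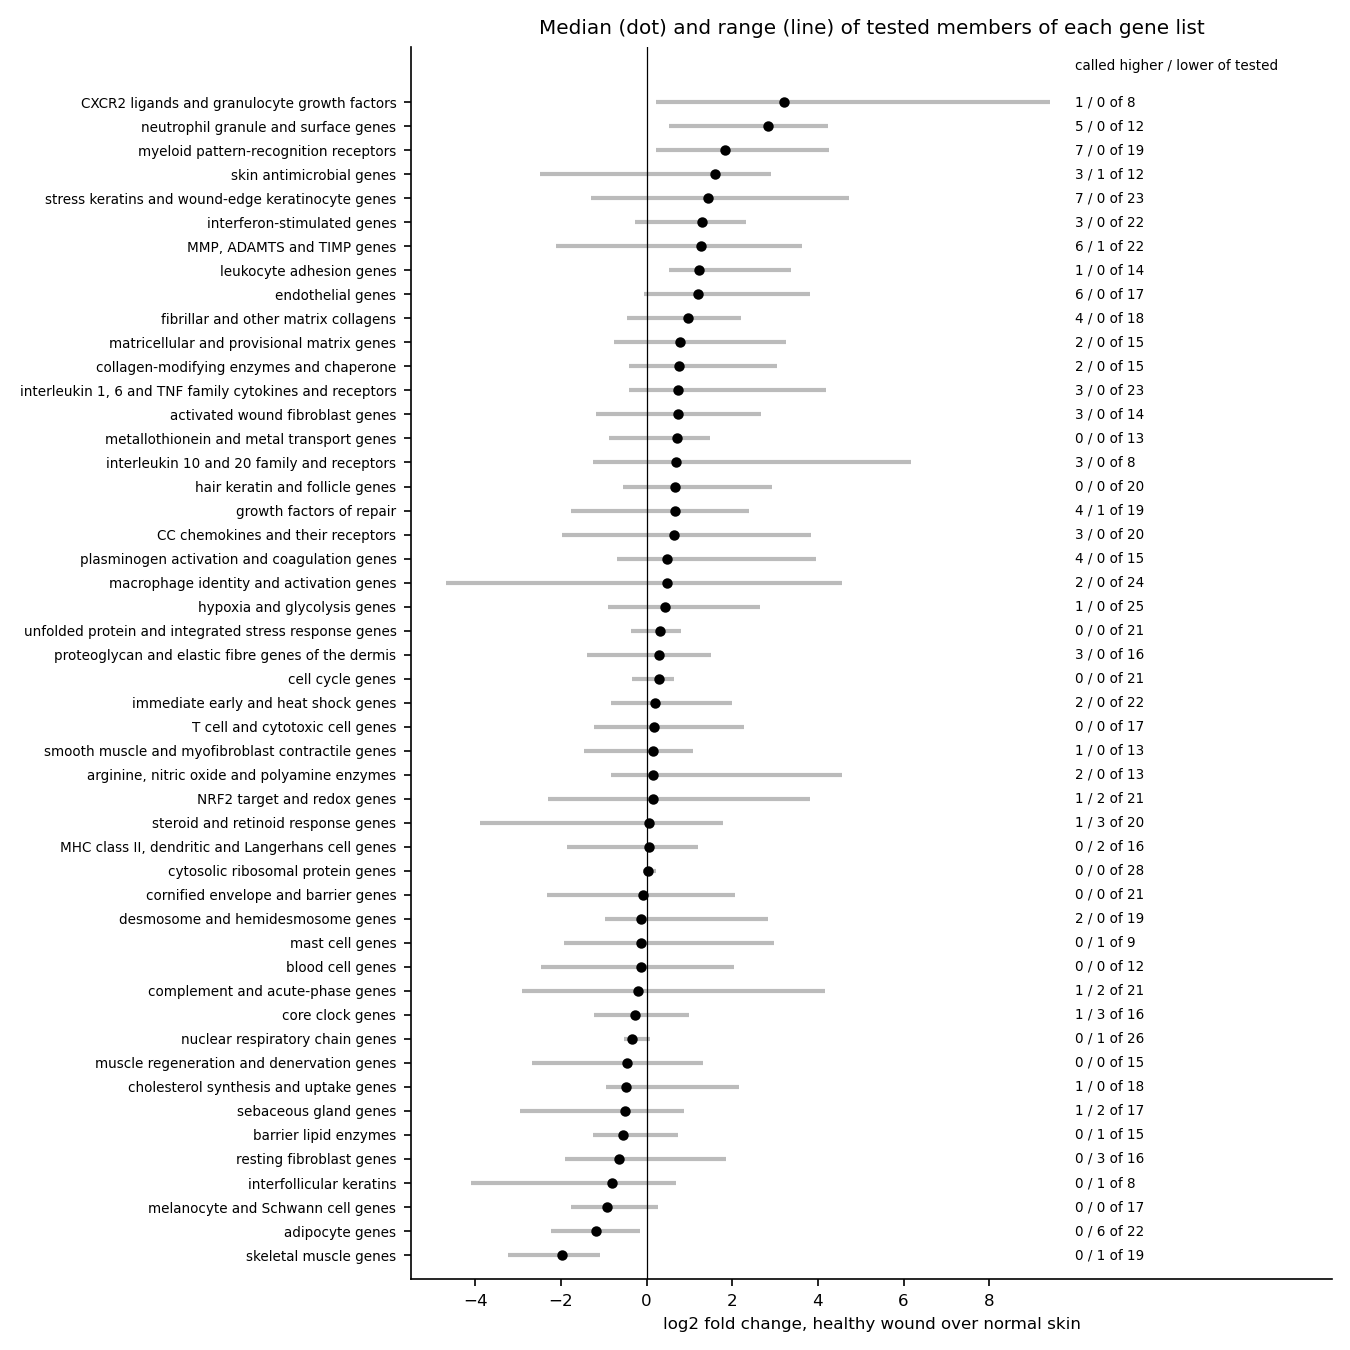
Log2 fold change, healthy wound over normal skin, of the 49 gene lists, ordered by their median; the dot is the median and the line the range of the tested members, and the numbers at the right give the members called higher and lower of those tested. The CXCR2 ligand and neutrophil lists lie at the top with medians of 3.22 and 2.85, and adipocyte and skeletal muscle lists at the bottom with -1.18 and -1.97. Members that passed the low-count filter through the wounds alone had to be positive.

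Of 16 genes of the daily clock 3 fell (1 to 5 with a library left out) and 1 rose, and 12 were negative. Nr1d1, the repressor REV-ERB alpha, measured 30.3, 35.4, 28.9, 35.5 and 51.8 CPM in healthy wounds, against 98.3, 73.4, 90.6, 76.3 and 63.6 CPM in normal skin. Nr1d1 had a log2 fold change of -1.15 (SE 0.19, adjusted p = 0.0159). Cry2, a clock repressor, averaged 21.8 ± 3.4 CPM in healthy wounds and 45.9 ± 13.6 CPM in normal skin. Cry2 had a log2 fold change of -1.08 (SE 0.22, adjusted p = 0.0298, but adjusted p = 0.0793 without healthy wound replicate 5). Hlf, a clock output factor, averaged 5.97 ± 1.82 CPM in healthy wounds and 14.1 ± 3.65 CPM in normal skin. Hlf had a log2 fold change of -1.24 (SE 0.26, adjusted p = 0.033, but adjusted p = 0.086 without healthy wound replicate 1). The repressor gene Bhlhe40 measured 102, 110, 157, 97.4 and 144 CPM in healthy wounds, against 68.4, 50, 63.5, 59.4 and 63.5 CPM in normal skin. Bhlhe40 had a log2 fold change of 1.0 (SE 0.16, adjusted p = 0.0152). None of the 4 overlapped. The hour of collection is not labelled.

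The lists of hypoxia and glycolysis genes and of nuclear respiratory chain genes gave 1 call each. That is near the 3.28% called over all genes tested, so these counts are no result about either list. Slc2a1, the glucose transporter GLUT1, averaged 199 ± 52.1 CPM in healthy wounds and 87.1 ± 30 CPM in normal skin and was the 1 call of 25 hypoxia and glycolysis genes, 20 of which were positive. Slc2a1 had a log2 fold change of 1.19 (SE 0.26, adjusted p = 0.0348, but adjusted p = 0.0817 without normal skin replicate 1). Hif1a averaged 323 ± 74.2 CPM in healthy wounds and 158 ± 50.5 CPM in normal skin and missed the threshold. Hif1a had a log2 fold change of 1.03 (SE 0.25, adjusted p = 0.0522). Of 26 nuclear genes of the respiratory chain 25 were negative (median -0.34), and Ndufv1 of complex I fell. Ndufv1 had a log2 fold change of -0.53 (SE 0.11, adjusted p = 0.0341, but adjusted p = 0.09 without healthy wound replicate 5). The lower share of mitochondrially encoded reads moved with them, and the summed muscle genes had a median of 9125 CPM in healthy wounds and 32170 CPM in normal skin. The part of muscle content was not tested.

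Of 21 NRF2 target and redox genes 1 rose and 2 fell, with 14 positive and a median of 0.14. With a library left out, 0 to 2 were called higher and 0 to 2 lower. The cystine carrier Slc7a11 rose (log2 fold change 1.76, SE 0.42, adjusted p = 0.0481, but adjusted p = 0.111 without healthy wound replicate 1). Malic enzyme Me1 fell (-0.65, SE 0.15, adjusted p = 0.0436, but adjusted p = 0.102 without healthy wound replicate 3). The glutathione transferase Gsta3 fell (-2.29, SE 0.43, adjusted p = 0.0224, but adjusted p = 0.0639 without healthy wound replicate 3). Of 20 steroid and retinoid response genes 3 fell and 1 rose, and the 1 rise was lost in each of the 10 fits that left out a library. Adh7, a retinol-oxidizing alcohol dehydrogenase, measured 11.6, 20.4, 13.2, 29.4 and 16.7 CPM in healthy wounds, against 57, 57.7, 55.6, 57.5 and 44.4 CPM in normal skin. Adh7 had a log2 fold change of -1.57 (SE 0.24, adjusted p = 0.0145). Its wounds all lay below normal skin. Adh6a averaged 0.893 ± 0.628 CPM in healthy wounds and 13.4 ± 5.57 CPM in normal skin. Adh6a had a log2 fold change of -3.89 (SE 0.58, adjusted p = 0.0145). The retinal dehydrogenase gene Aldh1a1 averaged 44 ± 15.8 CPM in healthy wounds and 102 ± 31.6 CPM in normal skin. Aldh1a1 had a log2 fold change of -1.22 (SE 0.29, adjusted p = 0.0494, but adjusted p = 0.117 without healthy wound replicate 5). Cyp2e1, a cytochrome P450 that oxidizes small molecules, averaged 30.6 ± 19.4 CPM in healthy wounds and 222 ± 104 CPM in normal skin. Cyp2e1 had a log2 fold change of -2.85 (SE 0.46, adjusted p = 0.0149).

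Among immediate early genes the AP-1 subunits Junb (1.14, SE 0.27, adjusted p = 0.046, but adjusted p = 0.114 without normal skin replicate 4) and Fosl2 (0.73, SE 0.15, adjusted p = 0.0293, but adjusted p = 0.0841 without normal skin replicate 4) were the 2 calls of 22. Of 18 cholesterol genes 1 rose (0 to 1 with a library left out), 17 were negative and 0 fell. Among the remaining genes named for the size of their change, the prokineticin receptor gene Prokr2 rose (5.08, SE 1.15, adjusted p = 0.0419, but adjusted p = 0.102 without normal skin replicate 4 and log2 fold change 7.89 without normal skin replicate 1). Ptprn, a protein of secretory granules, rose (3.83, SE 0.84, adjusted p = 0.037, but adjusted p = 0.0933 without normal skin replicate 4 and log2 fold change 4.73 without normal skin replicate 1). Myoc, myocilin, fell (-3.40, SE 0.66, adjusted p = 0.026, but adjusted p = 0.0764 without healthy wound replicate 1). The phosphatase subunit gene Ppp2r2c fell (-2.36, SE 0.51, adjusted p = 0.0367, but adjusted p = 0.0902 without healthy wound replicate 5).

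Proliferation, translation and folding genes gave no call. Of 21 cell cycle genes edgeR called 0 and 0 had an unadjusted p under 0.05, with 19 positive and a median of 0.28. Mki67 measured 198, 195, 146, 246 and 248 CPM in healthy wounds, against 84.6, 303, 92.3, 256 and 402 CPM in normal skin, and the normal libraries spanned both ends of the range. Mki67 had a log2 fold change of -0.14 (SE 0.41, adjusted p = 0.899). Cytosolic ribosomal protein genes gave 0 calls of 28 (median 0.04) and unfolded protein response genes 0 of 21, with 0 and 4 at an unadjusted p under 0.05. Over all 49 lists, 107 of 822 distinct genes tested were called, beside 537 of all 16394 genes tested (3.28%). The lists were chosen with earlier results of these data known, so the 2 shares are not a fair comparison. Of the 49 lists, 10 held no called gene. In these 10, DESeq2 called 1 T cell, 3 cornified envelope, 1 blood cell and 2 metallothionein genes and limma-voom 2 cornified envelope genes and 1 each of the melanocyte, blood cell and metallothionein genes. The others among these 10 were muscle regeneration genes (0 of 15, with 0 at an unadjusted p under 0.05), melanocyte and Schwann cell genes (0 of 17, with 2), blood cell genes (0 of 12, with 1) and metallothionein and metal transport genes (0 of 13, with 4).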

How the data were processed

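The deposited table holds raw read counts per gene and library, not normalized, for 55657 gene models. Per the labels' protocols, poly-A RNA was prepared with a NEBNext Ultra kit, which does not mark the strand, so overlapping antisense genes cannot be told apart. No aligner, counter or build is named (not given in the sources used here). Gene lengths in the deposited table were not used for any value.

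The 10 libraries were fitted alone with edgeR 4.0.16 in R 4.3.3 (filterByExpr, TMM, robust quasi-likelihood fit, group as the only term), and p-values were adjusted by the Benjamini-Hochberg method over 16394 genes. The 8 residual degrees of freedom and 15.7 to 17.8 M counts per library set the precision, and intervals cover counting error only. On simulated counts the fit called 45 of 50 genes lowered and 48 of 50 raised by a log2 fold change of 2, but 4 and 11 of 50 at a log2 fold change of 1. The simulation was drawn once and gave every gene the same coefficient of variation between libraries (0.41). It changed only better expressed genes and held no library that stood apart, so these shares may not hold for the real counts.

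CPM used TMM library sizes, and where a symbol stood on several models, lists took the model with most counts. The named genes were the 12 largest rises and 12 largest falls of non-overlapping called genes with a higher mean of at least 10 CPM, the 4 members of each list with the smallest p, and fixed genes. Further called list members were named after their values were seen, and some genes that these rules choose are not reported here. Members and lists were chosen with earlier results of these data known. A gene in 2 lists counts in both. No libraries of a group were near copies, since chi-square per degree of freedom between them was at least 39.8. Alternatives were RLE and upper-quartile scaling, no and a stricter low-count filter, DESeq2 1.42.0, limma-voom (limma 3.58.1) with quality weights, a fit over 3 groups, leaving out each library, a block on replicate number, and a test against a minimum log2 fold change of 1.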

Additional observations from a re-analysis of the deposited data

Results flagged for a closer look

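Among 308 groups of 5 values tested, 18 held a library whose gap to its nearest neighbour was more than 0.71 of the range of its group, and chance flags about 1 in 20 groups. Healthy wound replicate 1 stood above the other libraries of its group for Acta2 at 440 CPM (others 240.3 to 269 CPM). Healthy wound replicate 2 stood below the other libraries of its group for Fpr2 at 5.59 CPM (others 19.7 to 29.1 CPM), Tlr6 at 5.87 CPM (others 15.2 to 21.6 CPM), Cd300lf at 10.2 CPM (others 41.5 to 58.2 CPM) and Emcn at 12.9 CPM (others 30.4 to 40.1 CPM). Healthy wound replicate 5 stood below the other libraries of its group for Orm1 at 14.7 CPM (others 25.7 to 30 CPM) and Adipoq at 21.4 CPM (others 60.2 to 74.5 CPM). Normal skin replicate 1 stood above the other libraries of its group for Nlrp3 at 10.7 CPM (others 2.36 to 2.93 CPM), Cxcl3 at 9.12 CPM (others 0 to 0.114 CPM) and Prokr2 at 1.58 CPM (others 0 to 0.112 CPM). Normal skin replicate 2 stood below the other libraries of its group for Lyz1 at 5.07 CPM (others 24.7 to 39.3 CPM). Normal skin replicate 5 stood below the other libraries of its group for Oas1a at 8.4 CPM (others 14.3 to 17.1 CPM), Oas3 at 2.16 CPM (others 7.06 to 11.3 CPM), Hmcn2 at 57.8 CPM (others 169.6 to 262 CPM), Emilin1 at 23.8 CPM (others 54.6 to 67.6 CPM), Abca8a at 35.4 CPM (others 71.6 to 90 CPM), Angpt2 at 1.31 CPM (others 6.07 to 9.65 CPM) and Adh7 at 44.4 CPM (others 55.6 to 57.7 CPM).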

How the results depend on the processing

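The called genes numbered 537 (331 higher, 206 lower), with 107 list members among them. DESeq2 called 1915 (994 higher, 921 lower, 260 list members) and limma-voom with quality weights 1398 (790, 608 and 185). The fit over 3 groups called 193 (133, 60 and 48) and the test against a minimum log2 fold change of 1 called 5 (4, 1 and 3). Without the low-count filter 137 genes were lower. RLE scaling gave 518 calls, upper-quartile scaling 568 and the stricter filter 538. Leaving out each replicate in turn gave 124 to 622 called genes, 76 to 359 higher and 46 to 355 lower, and 37 to 109 list members. The causes were not tested.

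No called gene named here reversed its direction under any alternative run. Of 120 named called genes, 38 stayed called in every fit that left out a library, and DESeq2 kept 120, limma-voom 109 and the fit over 3 groups 53. Among the named genes that edgeR did not call, DESeq2 called 10 and limma-voom 7, so some of the missed thresholds depend on the tool.

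The replicate block gave 574 calls, with 80 of the 120 named genes kept. Whether same-numbered libraries share more than a number is not labelled. Their deviations from the group means correlated at -0.06 to 0.26. Differently numbered pairs spanned -0.47 to 0.40, so these correlations cannot decide it. With 5 libraries a group, few 2-fold changes were called on simulated counts, so a gene that missed the threshold may still differ.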

Other observations

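The gene groups in this paragraph were put together after the values were seen and carry no test of their own. Of 22 genes of vessel sprouting and guidance, 12 rose and 0 fell, with a median log2 fold change of 1.05, and 2 to 13 were called higher when a library was left out. They included the apelin receptor gene Aplnr (2.35, SE 0.39, adjusted p = 0.0164) and the Notch ligand and receptor genes Dll4 (1.63, SE 0.36, adjusted p = 0.0382, but adjusted p = 0.112 without healthy wound replicate 1) and Notch4 (1.48, SE 0.29, adjusted p = 0.0259, but adjusted p = 0.0777 without healthy wound replicate 1). Of 21 genes of fatty acid oxidation 8 fell and 0 rose (median -0.45), and 0 to 7 were called lower when a library was left out. Ppara, a nuclear receptor for fatty acids, was among them (-1.79, SE 0.31, adjusted p = 0.0164, but adjusted p = 0.0544 without healthy wound replicate 1). Of 24 genes of pyruvate entry and the citric acid cycle 6 fell and 23 were negative (median -0.48), with 2 to 8 called lower when a library was left out. Summed adipocyte genes had a median of 3281 CPM in healthy wounds and 7517 CPM in normal skin, and their part and that of muscle genes were not tested.

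A group of epithelial maintenance genes was also chosen after the values were seen. Of its 9 genes 7 fell, but 0 to 6 were called lower when a library was left out, and 2 without normal skin replicate 2. Among the 7 were the gene of the secreted Ly6 protein Slurp1 (-2.14, SE 0.47, adjusted p = 0.037, but adjusted p = 0.0876 without healthy wound replicate 3) and the stem cell receptor gene Lgr6 (-2.10, SE 0.46, adjusted p = 0.037, but adjusted p = 0.0947 without healthy wound replicate 5). Of 11 Skint genes 3 fell (2 to 3 with a library left out), and since these genes resemble each other, reads may have been shared between them. Of 15 genes of itch and sensory signalling 3 rose and 5 fell, with 1 to 3 higher and 2 to 5 lower calls when a library was left out. Il13ra2 was among those that rose (2.66, SE 0.48, adjusted p = 0.0198, but adjusted p = 0.0572 without healthy wound replicate 1), and Calcb was among those that fell (-2.21, SE 0.36, adjusted p = 0.0158).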
